A study of Homo sapiens with 12 samples.

Results

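Histone genes encode the proteins around which nuclear DNA is wrapped, and their transcripts were examined in human gingival keratinocytes given L-arginine (Arg). Members were all protein-coding genes of the count table whose symbols follow the old or the current histone naming, and 91 of its 58735 genes met this rule. By symbol, 71 of them were replication-dependent genes of the clusters HIST1 (55 genes), HIST2 (12), HIST3 (3), and HIST4 (1), and 20 were variant genes whose symbols name no cluster. Position was not used, and the variant H2AFJ lies near HIST4H4 on chromosome 12. A small number of testis-specific genes inside the HIST1 cluster count as replication-dependent under this rule. At least 1 read was counted for 78 members (64 replication-dependent and 14 variant), and 13 members were at 0 in all 12 libraries. EdgeR's filter on low counts let 49 members (39 replication-dependent and 10 variant) into at least 1 test.

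The cells were TIGK, a single line of gingival keratinocytes immortalized with telomerase (hTERT) and grown in wells of culture plates. All 4 groups were kept at 48 mM glucose: untreated control for 24 h, 500 µM Arg for 24 h, untreated control for 48 h, and 500 µM Arg for 48 h. The methods give the base medium as free of Arg, so the control cells had none added. Poly(A) RNA was sequenced from 3 libraries (A, B, and C) in each group, 12 in all. The labels do not say that these came from separate cultures, so the p-values below measure the spread between libraries, which may be technical.

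Histones H2A, H2B, H3, and H4 form the nucleosome core, and the linker histone H1 binds where DNA enters and leaves it. Replication-dependent genes supply most histone protein during S phase, when DNA is copied. Their messages as a rule carry no poly(A) tail and end in a short stem-loop that the protein SLBP binds. Variant genes are transcribed outside S phase too, usually give polyadenylated messages, and supply histones such as H3.3, H2A.Z, and macroH2A that enter chromatin at any time. A library made from poly(A) RNA should therefore hold mainly that part of the replication-dependent message that has a tail. A level given below is a level in such a library and not of the whole message, and tails were not examined.

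The stem-loop was read from the hg38 genome behind the stop codon of each member (GENCODE v44), because it separates messages that need no tail from those that do. It was present, with at most 3 of its 16 bases different from the commonest form, in 66 of the 66 replication-dependent members that could be read, and 36 of these carried the commonest form itself. It began between 23 and 63 bases behind the stop codon. The other 5 members had no coding sequence under the deposited identifier and were not read. Among the 19 variant members read, it was found in H2AFX alone, and the nearest stretch in H2AFJ differed at 4 bases. The commonest form was taken from the replication-dependent members themselves, so the search favors that class, and genes other than histones were not searched. Capitals mark the 6 bases on each side that make the stem, and lower case marks the loop. The first sequence is the commonest form, the second stands in the replication-dependent member with the most counts, the third is an H4 form found in no other histone kind, and the last is the variant gene with the same structure. Those of HIST1H1C and HIST1H2BK lie outside the deposited gene models, and those of HIST1H4I and H2AFX lie within them.
HIST1H1C (linker histone H1.2, chr6:26055744-26055759, minus strand): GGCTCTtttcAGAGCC
HIST1H2BK (an H2B, chr6:27146366-27146381, minus strand): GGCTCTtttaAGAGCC
HIST1H4I (an H4, chr6:27139654-27139669, plus strand): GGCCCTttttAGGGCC
H2AFX (H2A.X, chr11:119094898-119094913, minus strand): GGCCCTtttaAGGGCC

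The depth of the libraries lay between 16542243 and 19040964 counts, and histone genes took between 0.255% and 0.318% of them. Keratinocyte markers were high throughout (8 of 8 genes tested, summed level between 42779 and 55018 CPM, that is, counts scaled to a library total of 1e+06 after TMM scaling), and the leukocyte list summed to at most 0.449 CPM. Control library B at 48 h stood farthest from its group, with chi-square values per degree of freedom of 20.9 and 23.9 against libraries A and C. Counting noise gives about 1. The 24 h control library B gave 12.3 and 12.5 within its group, and the 24 h Arg library A 12.4 and 10.9. Other pairs within groups lay between 3.66 and 8.45. The sums and the counts of called genes that use the 48 h control are also given without its library B. No batch is named in the labels.

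Variant genes supplied 92.4% of all histone counts, 12.1 times those of the replication-dependent genes. On the scale of CPM per kilobase of exon, the level of the variant H2AFZ (H2A.Z) was highest at 222, followed by H2AFX (H2A.X, the histone phosphorylated beside DNA breaks) at 191. HIST1H2BK, an H2B gene, had 144 and was the highest replication-dependent member. H3F3B and H3F3A, which encode the same H3.3 protein, had levels per kilobase of 97.3 and 72.8. H1FX (H1.10) reached 82.7 and HIST1H1C 52.7. The macroH2A genes H2AFY and H2AFY2, whose products carry a large extra domain and mark silent chromatin, had 15.7 and 17.7 CPM per kilobase, and H2AFV (H2A.Z.2) had 31.9. These values depend on the deposited exon length, which is 17730 bases for H2AFY and 1980 for H2AFY2. Before division by length, H2AFY had 279 CPM and H2AFY2 had 35.1 CPM. Of the 20 variant members, 6 had no count and 4 had between 1 and 30 counts over all libraries.

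Few replication-dependent members carried most of that class. HIST1H2BK alone took 25.3% of its counts, and the 6 members with the highest mean CPM (HIST1H2BK, HIST1H1C, HIST1H2AC, HIST1H2BD, HIST1H4I, and HIST1H2BJ) took 72.9%. A list of 6 replication-dependent genes known to also give polyadenylated messages (HIST1H1C, HIST1H2AC, HIST1H2BC, HIST1H2BD, HIST1H2BK, and HIST2H2BE) held 64.9%. At the other end, 28 of the 64 members with a count had fewer than 100 counts over the 12 libraries. By kind, the replication-dependent H2B genes summed to 98.6 CPM, the H2A genes to 44.1, the H1 genes to 38.9, the H4 genes to 24.8, and the H3 genes to 10.9. Variant H2A genes other than macroH2A summed to 1002 CPM, macroH2A genes to 314, variant H3 genes to 826, and variant H1 genes to 489.

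**Figure D1:**
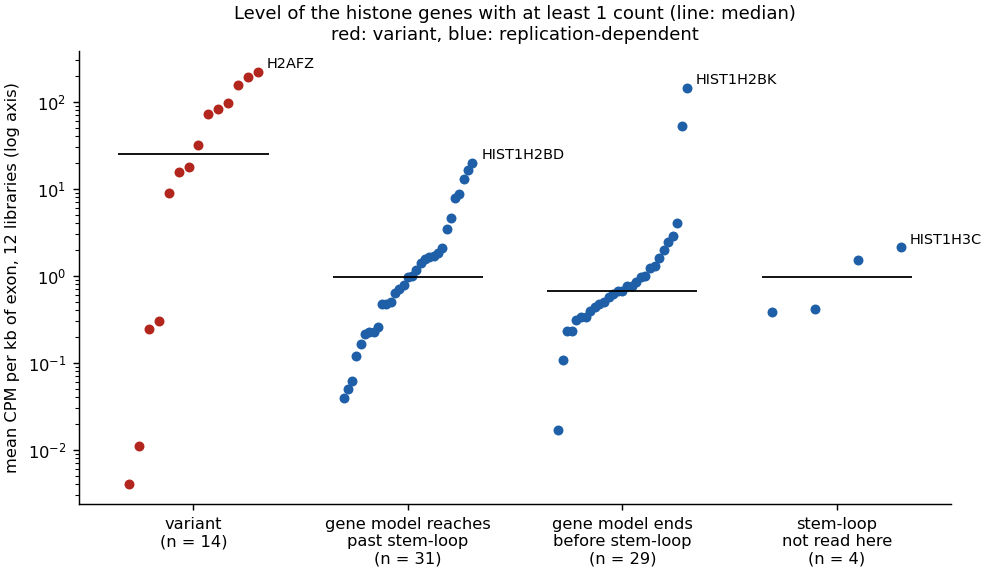
Mean level of each histone gene with at least 1 count (CPM per kilobase of exon over the 12 libraries, log axis), for variant genes (red) and for replication-dependent genes (blue) split by where the deposited gene model ends relative to the stem-loop. Each point is a gene and each line a median: 24.8 for the variant genes, 0.956 where the model reaches past the stem-loop, and 0.675 where it ends before it.

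Reads were counted within the deposited gene models, and the part of the model ends in the levels was not tested. In 35 of the 66 replication-dependent members read, the deposited model ended before the end of the stem-loop, so reads lying wholly beyond that point were not counted for them. Of these 35, 29 had a count and 12 were tested. In the other 31 the model reached past the stem-loop, all 31 had a count, and 25 were tested. The highest replication-dependent levels per kilobase still stood in the first set: HIST1H2BK, with a model of 381 bases, had 11960 counts, and HIST1H1C, with 642 bases, had 7381. Many replication-dependent genes are near-copies of each other, so reads may be split or lost between them, and their levels are uncertain. Another gene overlapped the span of 24 members (12 of them tested, and 6 of the 13 at 0), and the strand setting of the counting is not given in the sources used here.

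The summed level of each class was first compared between groups, as a description. Replication-dependent genes summed to 213 ± 3.02 CPM in the 24 h control, 223 ± 7.65 with Arg at 24 h, 226 ± 9.94 in the 48 h control, and 206 ± 9.57 with Arg at 48 h (mean ± SD, n = 3). Variant genes summed to 2794 ± 159 CPM in the 24 h control, 2971 ± 90.2 with Arg at 24 h, 2440 ± 96.0 in the 48 h control, and 2319 ± 21.2 with Arg at 48 h. The variant sums at 48 h lay below all those at 24 h, with no overlap between the times. The replication-dependent sums of Arg and control overlapped at 24 h and did not overlap at 48 h. Without control library B, the 48 h control summed to 232 ± 2.94 CPM for the replication-dependent and 2495 ± 8.65 CPM for the variant genes (n = 2), and both of these statements held. In bulk RNA, fewer cells of a type and less RNA per cell cannot be told apart.

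**Figure D2:**
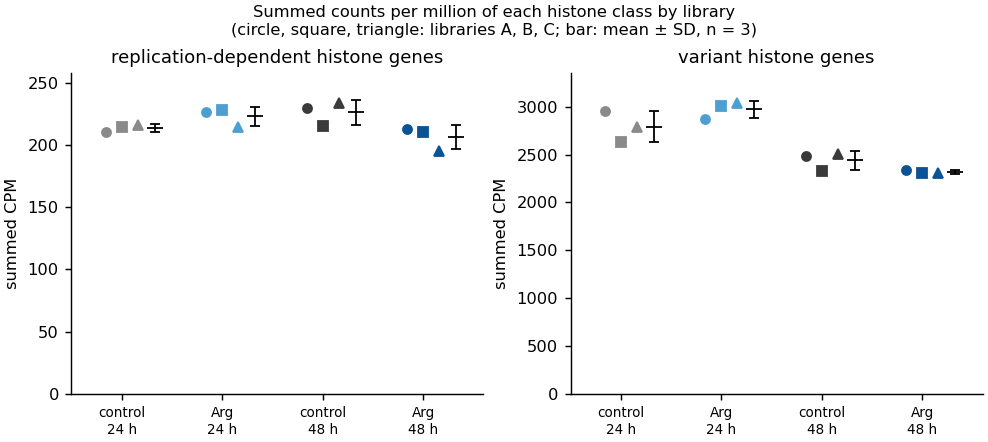
Summed CPM of the 71 replication-dependent (left) and 20 variant (right) histone genes in each library, with the mean ± SD of each group (n = 3). The 6 variant sums at 48 h, up to 2501, sit under the 6 at 24 h, from 2635, and the replication-dependent sums stay between 195 and 234.

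Groups were then compared with edgeR's quasi-likelihood test on the counts of the whole table. A gene was called when its p, adjusted over all genes tested, was under 0.05, and a log2 fold change above 0 is a higher level in the group named first.

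The first comparison asks how Arg changed histone transcripts after 24 h. A single member passed: H2AFY2, the macroH2A2 gene (ENSG00000099284, chr10:70052796-70112280, plus strand), which was higher with Arg. Its level was 28.1, 33.9, and 32.6 CPM in control libraries A, B, and C, and 39.8, 39.1, and 41.1 CPM in the Arg libraries. All 3 Arg values were above all 3 control values. The log2 fold change was 0.34 (SE 0.10, 95% interval 0.13 to 0.55, edgeR quasi-likelihood adjusted p = 0.0489). Among all genes tested, 2.79% were higher and 3.84% lower with Arg at this threshold, and 1 of 45 members was called.

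The H2AFY2 call was close to its threshold. It was lost without control library A, control library C, or any of the Arg libraries A, B, and C, with adjusted p-values between 0.0707 and 0.235, and also under scaling by library size (0.0515), without a filter on low counts (0.0508), and in a joint model of the 12 libraries (0.0523). DESeq2 gave an adjusted p of 0.0467. H2AFY2 shares 14058 bases with AIFM2, which lies on the other strand and had 11601 counts against 7630 for H2AFY2, and the part of those reads in its level was not tested.

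HIST1H2BF, an H2B gene (chr6:26199520-26200715, plus strand), had the largest fold change among the members near the threshold. It had 2, 10, and 7 reads in the control libraries and 15, 28, and 26 in the Arg libraries, which did not overlap. Its log2 fold change was 1.83 (SE 0.55, edgeR adjusted p = 0.0529), so it missed the threshold, and it passed without control library B (adjusted p = 0.0297), without Arg library A (0.0482), without a filter (0.0264), in the joint model (0.0419), and with the replicate block (0.0365). The linker histone gene H1FX had 122, 103, and 115 CPM in control and 119, 148, and 158 CPM with Arg, and the groups overlapped. Its log2 fold change was 0.31 (SE 0.10, edgeR adjusted p = 0.0714), and it passed without Arg library A (0.0121), without a filter (0.0154), in the joint model (0.0498), and in DESeq2 (0.0475).

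H2AFX levels at 24 h were 355, 349.9, and 303 CPM in control and 362, 408, and 389 CPM with Arg. The Arg values lay above the control values, with a log2 fold change of 0.20 (SE 0.08, edgeR adjusted p = 0.153). HIST3H2A, an H2A gene of the small HIST3 cluster, lay the other way, with 9.36, 9.37, and 10.4 CPM in control and 6.62, 6.52, and 7.79 CPM with Arg. Its log2 fold change was -0.48 (SE 0.17, edgeR adjusted p = 0.0944). HIST1H2BD, an H2B gene with a known polyadenylated form, had 21.9, 16.02, and 16.1 CPM in control and 13.0, 15.5, and 13.8 CPM with Arg, a log2 fold change of -0.36 (SE 0.15, edgeR adjusted p = 0.155). Both groups were separate for HIST3H2A and HIST1H2BD, and neither gene passed.

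The remaining members showed no call at 24 h. In the replication-dependent class, 0 of 35 passed in edgeR, 1 was higher and 2 were lower at an unadjusted p under 0.05, where 10.8% of all genes were higher and 11.9% lower, and DESeq2 called 0 of them. Their median log2 fold change was 0.040, that of the 10 variant genes was 0.11, and that of all tested genes was 0.0030. The most abundant variants differed little: the log2 fold change was 0.11 (95% interval -0.06 to 0.27) for H3F3B and -0.01 (-0.19 to 0.17) for H2AFZ. Groups did not overlap for 4 replication-dependent members that were higher and 5 that were lower, or 12 members in all, where 12.9% of all tested genes were separate and higher and 13.4% separate and lower. Mitochondrially encoded genes took between 1.20% and 1.30% of the counts in the 24 h control and between 0.624% and 0.802% with Arg, and the part of this in the values was not tested.

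After 48 h, no histone gene passed between Arg and control. Of 44 members tested, edgeR and DESeq2 called 0, while 1 replication-dependent member was higher, 4 were lower, and 2 variant genes were lower at an unadjusted p under 0.05. Over all genes, edgeR called 0 higher and 0.117% lower, and 5.94% were higher and 7.49% lower unadjusted. The median log2 fold change was -0.064 for 34 replication-dependent genes, 0.0036 for 10 variant genes, and 0.0018 for all genes tested.

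H2AFZ, which encodes the H2A.Z that sits beside active promoters (ENSG00000164032, chr4:99948086-99950388, minus strand), had 514, 436, and 517 CPM in control and 431, 399, and 403 CPM with Arg at 48 h. Every Arg value lay below every control value, with a log2 fold change of -0.25 (SE 0.07, edgeR adjusted p = 0.198). HIST3H2A (chr1:228456979-228457873, minus strand) had 8.33, 5.44, and 8.30 CPM in control and 5.05, 4.28, and 3.05 CPM with Arg, again without overlap. Its log2 fold change was -0.83 (SE 0.24, edgeR adjusted p = 0.198). HIST2H2AC, an H2A gene, had 47, 37, and 38 reads in control and 14, 20, and 18 with Arg, a log2 fold change of -1.12 (SE 0.36, edgeR adjusted p = 0.221). HIST1H2BD had 21.8, 19.2, and 22.6 CPM in control and 17.6, 13.9, and 17.1 CPM with Arg, a log2 fold change of -0.39 (SE 0.13, edgeR adjusted p = 0.227). In all of these genes the control group was the higher, and none of them passed. Groups did not overlap for 2 members that were higher and 6 that were lower, where 8.56% and 8.51% of all tested genes were. The member higher at an unadjusted p under 0.05, HIST1H2AG (named after its values were seen), had 1.78, 2.49, and 2.41 CPM in control and 3.28, 3.93, and 3.28 CPM with Arg.

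A single library decided this count. Without control library B, 7 members passed in edgeR, 6 lower with Arg and 1 higher. H2AFY, H2AFZ, HIST1H1C, HIST1H2BD, and HIST3H2A were among those lower, and H3F3A was the one higher. The log2 fold change was then -0.33 for H2AFZ (edgeR adjusted p = 0.000214), -0.46 for HIST1H1C (0.000672), -1.01 for HIST3H2A (0.00219), -0.45 for HIST1H2BD (0.0117), -0.18 for H2AFY (0.0245), and 0.19 for H3F3A (0.0287). Calls over all genes rose as well, to 1152 higher and 1213 lower (7.76% and 8.17%), from 0 and 17. At an unadjusted p under 0.05, 1 replication-dependent member was then higher and 4 were lower, and 2 variant genes were higher and 4 lower, where 14.7% of all genes were higher and 14.6% lower. The median log2 fold change became -0.11 for the replication-dependent and -0.077 for the variant genes, against 0.0058 for all genes tested. Mitochondrially encoded genes took 1.55% of that library against 0.907% and 0.707% in libraries A and C, and between 1.14% and 1.31% in the Arg group. No other library left out at 48 h gave a called member.

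Whether the Arg difference itself changed between 24 and 48 h was tested as an interaction over the 12 libraries. No member of 49 passed in edgeR or DESeq2, with the smallest adjusted p at 0.606, and over all genes 0.0132% were called higher and 0 lower. At an unadjusted p under 0.05, 3 replication-dependent and 3 variant members were lower and 0 were higher, where 3.80% and 3.06% of all genes were. The difference of the log2 fold changes was -0.30 for H2AFX (95% interval -0.54 to -0.06), -0.24 for H2AFZ (-0.48 to -0.0012), -0.33 for H2AFY2 (-0.63 to -0.02), -0.47 for HIST1H1C (-0.83 to -0.10), -1.28 for HIST1H2BH (-2.40 to -0.16), and -2.01 for HIST1H2BF (-3.54 to -0.47). The estimate was below 0 for 9 of 10 variant genes and 24 of 39 replication-dependent genes, and for 51.1% of all genes tested. H3F3A was the exception among the variants, at 0.02 (-0.22 to 0.25). Without the 48 h control library B no member of 51 passed either, with the smallest adjusted p at 0.122 (HIST1H1C, -0.60), and 3 replication-dependent and 4 variant members were lower unadjusted, where 4.67% of all genes were. Over all genes 0.181% were then called higher and 0.116% lower.

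**Figure D3:**
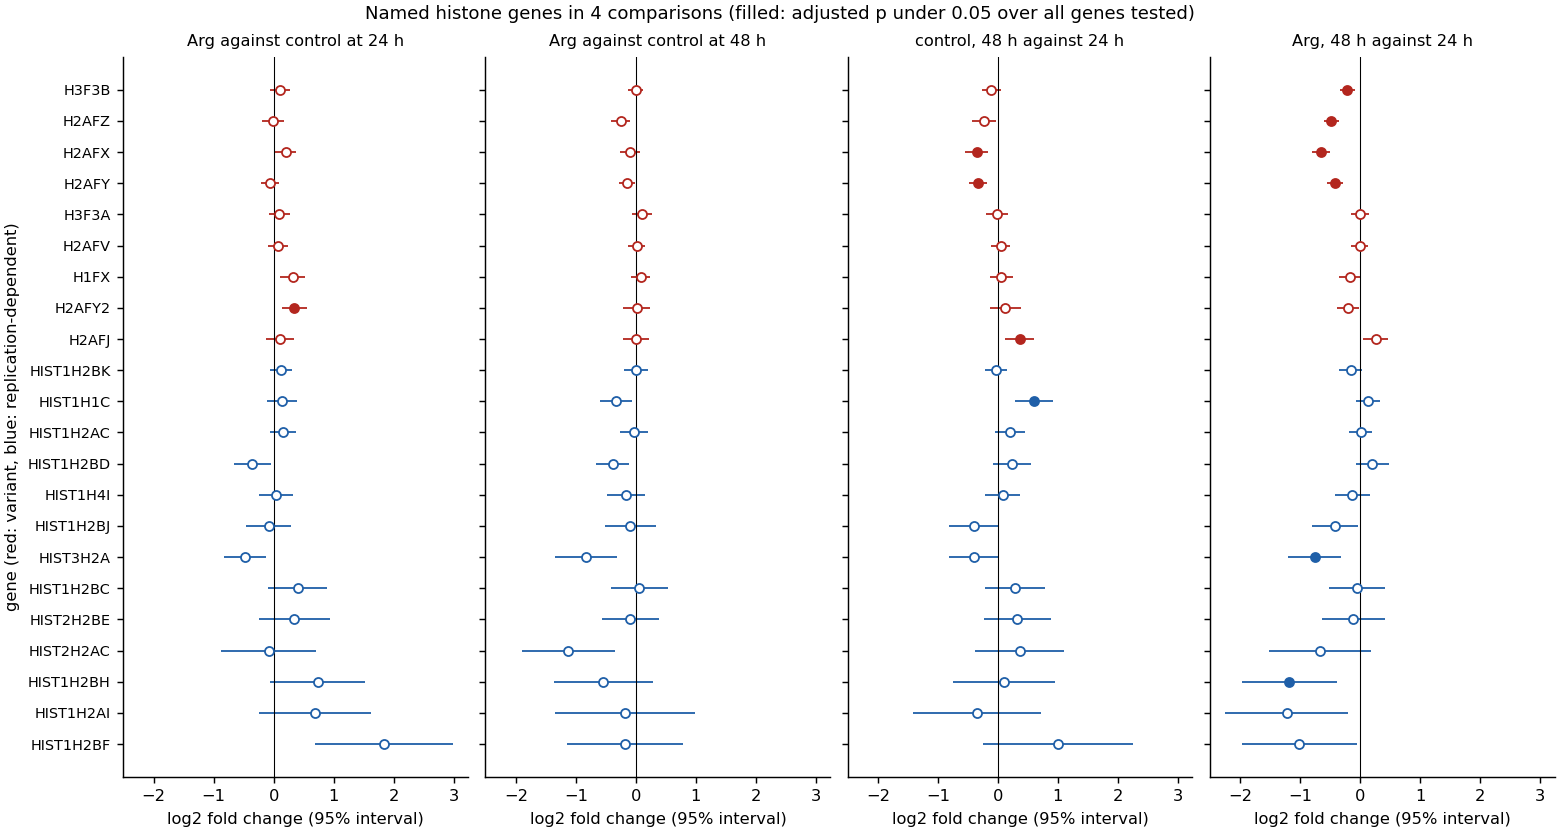
Log2 fold changes of 22 named histone genes, with 95% intervals, in the 4 comparisons of groups (variant genes red, replication-dependent genes blue, and filled points an edgeR adjusted p under 0.05 over all genes). Among the genes drawn, filled points number 1 for Arg at 24 h, 0 for Arg at 48 h, 4 for time in control cells, and 6 for time with Arg.

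By count, more members were called with time in culture than between Arg and control, and the same held over all genes tested. In control cells, 5 of 45 members passed between 48 h and 24 h, 2 higher and 3 lower, where 9.90% of all genes were called higher and 10% lower. With Arg, 7 of 42 passed and all 7 were lower, where 14.3% of all genes were called higher and 14.0% lower. Leaving out the 48 h control library B gave the same 5 calls in control cells, where 7.81% and 8.60% of all genes were called. Mitochondrially encoded genes moved with time under Arg, from between 0.624% and 0.802% of the counts at 24 h to between 1.14% and 1.31% at 48 h, without overlap. In control cells their share lay between 1.20% and 1.30% at 24 h and between 0.707% and 1.55% at 48 h, and the part of these shares in the values was not tested. Both time comparisons share libraries with the Arg comparisons, so their values are given side by side only. Scaled by library size alone, the calls over all genes shifted from 1431 higher and 1451 lower to 1845 and 1008 in control cells, and from 2060 and 2012 to 2568 and 1453 with Arg. Under that scaling 2 members were higher and 2 lower in control cells, and 1 was higher and 6 lower with Arg.

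H2AFX (ENSG00000188486, chr11:119093854-119095467, minus strand) fell with time in both. Its level went from 355, 349.9, and 303 CPM at 24 h to 280.1, 236, and 272 CPM at 48 h in control libraries, and from 362, 408, and 389 to 229, 256, and 253 CPM with Arg. Each 48 h value was below each 24 h value of the same treatment. The log2 change was -0.35 (SE 0.09, edgeR adjusted p = 0.0173) in control cells and -0.65 (SE 0.07, edgeR adjusted p = 1.17e-06) with Arg. The control call was lost without the 24 h control library A (adjusted p = 0.0913).

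H2AFY, the macroH2A1 gene (ENSG00000113648, chr5:135333900-135399914, minus strand), also fell with time in both. It went from 325, 320.3, and 319 CPM to 265, 239, and 259 CPM in control cells, and from 317, 304, and 308 to 235, 229, and 229 CPM with Arg. The log2 changes were -0.34 (SE 0.07, edgeR adjusted p = 0.00761) and -0.42 (SE 0.06, edgeR adjusted p = 5.1e-05), and both calls were kept under all alternatives that were run, as were the calls of H2AFX and H2AFZ with Arg. H2AFZ went from 623, 502, and 603 CPM to 514, 436, and 517 CPM in control cells, which overlapped, and its log2 change of -0.23 did not pass (SE 0.09, edgeR adjusted p = 0.102). It passed without the 24 h control library B, with a log2 change of -0.33 (adjusted p = 0.0176), and also without a filter on low counts (0.0218), in the joint model (0.0387), and with the replicate block (0.00699). With Arg it fell from 579, 565, and 572 to 431, 399, and 403 CPM, a log2 change of -0.48 (SE 0.06, edgeR adjusted p = 1.34e-05).

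Of the H3.3 genes, H3F3B passed with Arg and H3F3A did not, and the difference between them was not tested. H3F3B (ENSG00000132475, chr17:75776434-75785893, minus strand) had 669, 633, and 661 CPM with Arg at 24 h and 570.1, 570.3, and 549.7 CPM at 48 h. It fell by 0.21 on the log2 scale (SE 0.06, edgeR adjusted p = 0.0118), a call that was lost without the 48 h Arg library B (adjusted p = 0.0597), without library C (0.0540), or with scaling by library size alone (0.0585). H3F3A had 223, 231, and 259 CPM and then 248, 235, and 228 CPM, a log2 change of -0.00057 (95% interval -0.15 to 0.15). Its 6 processed pseudogenes held 7407 counts against 49885 for the gene, and the part of shared reads in its level was not tested. Among the other variants, H2AFV stood at -0.01 (-0.15 to 0.14) and H1FX at -0.17 (-0.36 to 0.01) with Arg. The H1FX change became -0.29 and passed without the 24 h Arg library A (adjusted p = 0.00348).

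H2AFJ, an H2A variant known from senescent cells, was the variant gene that rose in control cells. Its level was 25.9, 25.5, and 26.1 CPM at 24 h and 34.6, 28.6, and 36.3 CPM at 48 h, without overlap. The log2 change was 0.36 (SE 0.11, edgeR adjusted p = 0.0397), and leaving out any control library other than B at 48 h gave an adjusted p between 0.0745 and 0.145. With Arg it went from 24.6, 28.0, and 31.0 CPM to 32.9, 33.2, and 33.9 CPM, and the log2 change of 0.26 (SE 0.10) had an edgeR adjusted p of 0.0576. That change passed under scaling by library size alone (0.0215) and without the 24 h Arg library C (0.0283).

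In the replication-dependent class, 1 member passed with time in control cells and 2 passed with Arg. HIST1H1C (ENSG00000187837, chr6:26055787-26056428, minus strand) rose in control cells from 23.2, 30.2, and 30.7 to 45.8, 34.3, and 47.5 CPM, without overlap. Its log2 change was 0.60 (SE 0.14, edgeR adjusted p = 0.0135), and the call was lost without the 24 h control library A (adjusted p = 0.0771) or the 48 h control library A (0.0505). With Arg it went from 30.0, 32.6, and 30.0 to 36.2, 33.6, and 31.6 CPM, a log2 change of 0.13 (95% interval -0.06 to 0.33). The difference between these changes is the interaction given above, which did not pass.

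HIST3H2A fell with Arg, from 6.62, 6.52, and 7.79 CPM at 24 h to 5.05, 4.28, and 3.05 CPM at 48 h. Its log2 change was -0.75 (SE 0.21, edgeR adjusted p = 0.0118), and it was lost without the 48 h Arg library C (-0.57, adjusted p = 0.0634). HIST1H2BH, an H2B gene (chr6:26251651-26253710, plus strand), fell from 28, 44, and 56 reads to 23, 18, and 15 reads. The log2 change of -1.18 (SE 0.38, edgeR adjusted p = 0.0254) was lost without the 24 h Arg library B (adjusted p = 0.0719) or C (0.126), and without the 48 h Arg library B (0.0574) or C (0.0811). HIST1H2AI, an H2A gene with 22, 26, and 18 reads and then 10, 13, and 5 reads, had a log2 change of -1.22 (SE 0.49, edgeR adjusted p = 0.0696).

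**Figure D4:**
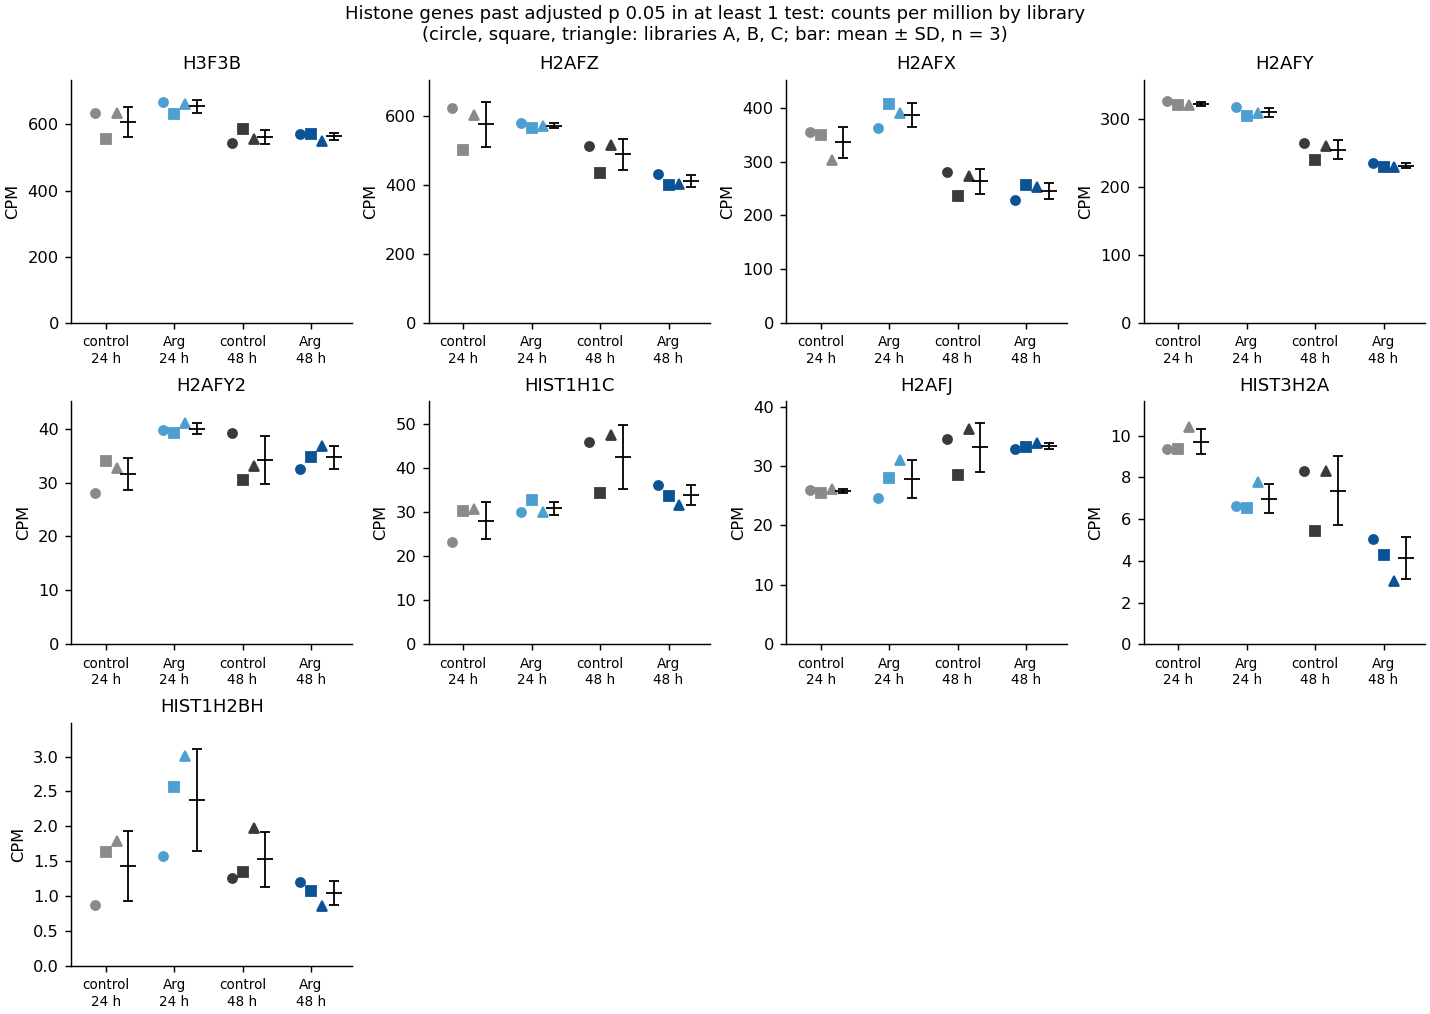
CPM of 9 histone genes with an edgeR adjusted p under 0.05 in at least 1 test, by library (circle A, square B, triangle C), with the mean ± SD of each group (n = 3). H3F3B, H2AFZ, H2AFX, and H2AFY sit lower at 48 h than at 24 h with Arg without overlap, whereas HIST1H1C and H2AFJ sit higher at 48 h in control cells.

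The remaining replication-dependent genes did not pass. Over the whole class with Arg, 25 of the 32 tested had a lower estimate at 48 h, as did 49.9% of all genes, the median log2 change was -0.24 against 0.00092 over all genes, and 8 were lower without overlap and 0 higher, where 21.2% and 21.1% of all tested genes were. In control cells 17 of 35 were higher, with a median of -0.013 against 0.012 over all genes, and 4 were higher and 3 lower without overlap, where 19.2% and 19.7% of all tested genes were. HIST1H2BK, at 53.0, 56.9, and 53.2 CPM in the 24 h control and 55.4, 58.3, and 46.3 CPM with Arg at 48 h, had log2 changes between -0.15 and 0.13 in the 4 comparisons and passed none. HIST1H2AC, an H2A gene, lay between -0.03 and 0.20, HIST1H4I between -0.17 and 0.08, HIST1H2BC between -0.05 and 0.40, and HIST2H2BE between -0.11 and 0.35. HIST1H2BJ, an H2B gene, had a log2 change of -0.41 with time in control cells (SE 0.19, edgeR adjusted p = 0.154) and -0.41 with Arg (SE 0.18, edgeR adjusted p = 0.0952). HIST1H4C, an H4 gene with between 2 and 13 reads in a library, was too low for the comparisons of groups, so a change of it was not detectable at these counts.

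Marker genes of keratinocytes and of other cell types moved as well. Of the 7 fibroblast markers, DCN and COL1A1 rose in both time comparisons, and DCN was lower with Arg at 24 h (19.5 ± 4.84 against 31.7 ± 8.81 CPM, n = 3, log2 fold change -0.70, edgeR adjusted p = 0.0294). The list summed to between 34.2 and 54.4 CPM in the 24 h control, 30.2 and 41.3 with Arg at 24 h, 85.3 and 102 in the 48 h control, and 72.7 and 100.2 with Arg at 48 h. LUM went from 0.796 to 1.65 CPM on average in control cells and from 0.847 to 1.84 CPM with Arg, and did not pass. PDGFRB lay between 0.393 and 1.75 CPM, and COL1A2, COL3A1, and PDGFRA reached at most 0.0575, 0.210, and 0.268 CPM in any library. Of the 8 keratinocyte markers, CDH1 and TP63 rose and KRT17 and SFN fell in both time comparisons, and without the 48 h control library B the count in control cells was 1 higher and 2 lower. With Arg at 48 h none of the markers tested passed in edgeR (1 keratinocyte marker higher unadjusted), and without that library KRT14 and SFN were higher (log2 fold changes 0.26 and 0.17, edgeR adjusted p = 0.00332 and 0.0496). The endothelial list summed to at most 1.45 CPM at 24 h and 2.13 CPM at 48 h, and its gene VWF rose with time under Arg (log2 change 1.59, edgeR adjusted p = 0.0422). The melanocyte list summed to at most 1.91 and 3.05 CPM. The part of these markers in the histone values was not tested.

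The genes that make and place histones were read from lists chosen together with the members. Of 23 symbols listed for transcription and processing of histone messages, 20 stood in the count table and were tested. For Arg, 0 passed in edgeR. Unadjusted at 24 h, 4 were higher and 1 lower, where 10.8% and 11.9% of all genes were. At 48 h, 2 were higher and 1 lower unadjusted, where 5.94% and 7.49% of all genes were. The smallest p at both times belonged to ZNF473, a zinc finger protein of the histone pre-mRNA cleavage machinery, with log2 fold changes of 0.31 (edgeR adjusted p = 0.0509) and 0.27 (adjusted p = 0.240). SYMPK (symplekin, a scaffold of the cleavage complex) had 0.29 at 24 h (adjusted p = 0.0723), the cyclin gene CCNE1 had -0.38 at 24 h (0.0839), and CCNE2 had -0.29 at 48 h (0.268). Without the 48 h control library B, 3 were higher and 1 lower with Arg at 48 h, where 7.76% and 8.17% of all genes were, and ZNF473 stood at 0.31 (adjusted p = 0.0292). With time, 4 of 20 genes rose and 2 fell in control cells, where 9.90% and 10% of all genes did, and 3 rose and 2 fell with Arg, where 14.3% and 14.0% did. Without that library, 3 rose and 2 fell in control cells, where 7.81% and 8.60% of all genes did. NPAT, the coactivator of replication-dependent histone genes, rose by 0.42 in control cells (edgeR adjusted p = 0.0395) and by 0.25 with Arg (adjusted p = 0.0286), and CASP8AP2 (FLASH), its partner in histone message processing, by 0.60 (0.0123) and 0.59 (0.000187). Without the 48 h control library B the NPAT change in control cells was 0.26 and did not pass (adjusted p = 0.0999). SLBP, the stem-loop binding protein, stood at -0.12 and -0.10 and did not pass. These last 3 genes were named after their values were seen.

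Of 36 genes listed as histone chaperones and deposition factors, 35 were tested. The list also holds CENPA, which is itself a histone. At 24 h with Arg, 3 rose and 1 fell, where 2.79% and 3.84% of all genes did. NASP, a carrier of H3 and H4 and of linker histones, rose by 0.33 on the log2 scale (SE 0.08, edgeR adjusted p = 0.0174), UBN1 of the HIRA complex that deposits H3.3 by 0.35 (SE 0.09, adjusted p = 0.0292), and ASF1B, an H3-H4 chaperone, by 0.35 (SE 0.09, adjusted p = 0.0348). NAP1L1, an H2A-H2B chaperone, fell by 0.40 (SE 0.07, edgeR adjusted p = 0.00377), from 631 ± 28.4 to 479 ± 21.0 CPM. At 48 h, edgeR called 0. Unadjusted, 1 was lower (NAP1L1 at -0.24) and 0 were higher, where 7.49% and 5.94% of all genes were. Without the 48 h control library B, edgeR called 2 higher and 2 lower, where 7.76% and 8.17% of all genes were. NAP1L1 then stood at -0.33 (edgeR adjusted p = 0.000187) and ASF1B at -0.25 (0.0118). ASF1B then passed in the interaction as well (-0.60, edgeR adjusted p = 0.0363), where 0.116% of all genes were called lower. With time, 5 of 35 rose and 2 fell in control cells, with or without that library, and 7 rose and 4 fell with Arg. The share of all genes called in the same comparisons was 9.90% higher and 10% lower in control cells, and 14.3% and 14.0% with Arg. In control cells without that library, the share was 7.81% higher and 8.60% lower. The centromeric H3 variant CENPA, whose symbol the member rule does not take, fell by 0.53 in control cells (edgeR adjusted p = 0.00800) and by 0.64 with Arg (adjusted p = 2.63e-05), and its chaperone HJURP by 0.42 (0.00725) and 0.61 (1.81e-05). CENPA and HJURP belong to the list and are counted above among its genes that fell with time. They were chosen for naming after their values were seen.

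Of 44 symbols listed as marking S phase, 43 stood in the count table and 42 were tested. With Arg at 24 h, NASP, which is in this list too, was the gene that passed. Over all genes, 2.79% were called higher and 3.84% lower. Unadjusted, 10 were higher and 1 lower in the list, where 10.8% and 11.9% of all genes were. The median log2 fold change was 0.093, and 33 of the 42 estimates were above 0, as were 50.5% of all genes. RRM1, a subunit of ribonucleotide reductase, had 0.24 (edgeR adjusted p = 0.0547), CDCA7 0.26 (0.0554), and the replicative helicase gene MCM2 0.24 (0.0875). At 48 h 0 passed in edgeR, with a median of -0.041, and 16 of the 42 estimates were above 0, as were 50.3% of all genes. Unadjusted, 1 was higher and 3 were lower, where 5.94% and 7.49% of all genes were. Without the 48 h control library B, 5 were higher and 5 lower, where 7.76% and 8.17% of all genes were. With time, 5 of 42 rose and 2 fell in control cells, where 9.90% and 10% of all genes did. Without that library, 5 rose and 4 fell in control cells, where 7.81% and 8.60% did. With Arg, 5 rose and 7 fell, where 14.3% and 14.0% did.

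The promoters of the members that moved were read from RefSeq (GRCh38.p14), which matched 77 members (61 replication-dependent and 16 variant) with 86 promoters. In the 250 bases before the start, the letters CCAAT, bound by the factor NF-Y, stood on either strand in 84.6% of the replication-dependent and 76.2% of the variant promoters, against 32.0% of the 35116 promoters in the table. A core promoter element, TATAAA, stood in 66.15%, 19.05%, and 10.7%, and a part of the element bound by the cell cycle complex DREAM, TTTGAA, stood in 32.3%, 9.52%, and 13.3%. The windows below belong to H2AFX, H2AFZ, H3F3B, and HIST3H2A, which fell with time under Arg, and to HIST1H1C, which rose in control cells. All are on the minus strand and printed 5′ to 3′ as transcribed, and capitals mark the letters searched for on either strand. A match is a description of the letters and not a bound site. The H3F3B window lies inside the deposited span of that gene, and the H2AFZ window partly so, since those gene models start farther upstream. The HIST3H2A window takes in all bases between that gene and HIST3H2BB, which starts at chr1:228458107 on the plus strand. It also reaches into the span of HIST3H2BB, so its letters cannot be assigned to 1 of these genes.
H2AFX, chr11:119095466-119095715: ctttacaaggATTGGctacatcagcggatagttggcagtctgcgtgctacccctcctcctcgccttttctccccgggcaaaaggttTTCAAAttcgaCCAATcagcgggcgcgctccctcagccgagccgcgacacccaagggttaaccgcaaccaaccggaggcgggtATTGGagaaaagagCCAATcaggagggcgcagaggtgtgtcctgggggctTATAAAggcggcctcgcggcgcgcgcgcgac
H2AFZ, chr4:99950276-99950525: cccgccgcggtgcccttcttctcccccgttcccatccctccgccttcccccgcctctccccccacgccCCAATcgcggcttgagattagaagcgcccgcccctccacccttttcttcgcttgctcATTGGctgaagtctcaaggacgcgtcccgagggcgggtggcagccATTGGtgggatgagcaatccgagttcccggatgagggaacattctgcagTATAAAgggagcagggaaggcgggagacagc
H3F3B, chr17:75779780-75780029: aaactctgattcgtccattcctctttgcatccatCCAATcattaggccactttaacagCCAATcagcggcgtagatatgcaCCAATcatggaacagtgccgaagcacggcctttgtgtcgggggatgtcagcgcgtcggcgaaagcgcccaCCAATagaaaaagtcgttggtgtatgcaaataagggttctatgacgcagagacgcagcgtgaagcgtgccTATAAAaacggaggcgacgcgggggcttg
HIST3H2A, chr1:228457874-228458123: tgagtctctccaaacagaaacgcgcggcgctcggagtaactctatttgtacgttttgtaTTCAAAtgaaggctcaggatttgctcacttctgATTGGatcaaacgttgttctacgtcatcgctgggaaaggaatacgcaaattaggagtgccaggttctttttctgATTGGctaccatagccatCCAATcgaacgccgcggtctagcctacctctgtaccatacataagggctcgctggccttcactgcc
HIST1H1C, chr6:26056471-26056720: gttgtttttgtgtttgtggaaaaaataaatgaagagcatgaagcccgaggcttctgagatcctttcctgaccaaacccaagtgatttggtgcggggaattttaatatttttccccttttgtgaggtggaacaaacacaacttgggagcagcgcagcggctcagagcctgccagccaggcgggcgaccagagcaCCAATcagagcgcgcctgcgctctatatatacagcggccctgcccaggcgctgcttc

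H2AFX, the variant with a stem-loop, also had the promoter with the most of these letters among the windows printed: CCAAT 4 times, TATAAA 1 time, and TTTGAA 1 time. H3F3B held CCAAT 4 times and TATAAA 1 time, and H2AFZ held them 3 times and 1 time. HIST3H2A had CCAAT 3 times and TTTGAA 1 time, and HIST1H1C had CCAAT 1 time and neither of the others. Of the called members whose windows are not printed, H2AFJ and HIST1H2BH held CCAAT 3 times each, H2AFY2 held none of the letters searched for, and H2AFY had a promoter with CCAAT 2 times and another with 0.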

How the data were processed

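Libraries of poly(A) RNA from TIGK cells (48 mM glucose, 24 or 48 h, 500 µM Arg or none added) were grouped by their labels, 3 to a group. The authors filtered reads with fastp, aligned them to GRCh38/hg38 with STAR, and counted reads per gene with featureCounts, and the deposited values are these raw counts, without normalization. The annotation release and tool versions are not given in the sources used here. Columns of counts left out numbered 0. Libraries held between 16542243 and 19040964 counts.

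Comparisons of groups and the interaction were fitted on the whole table with edgeR 4.0.16 (R 4.3.3) by the quasi-likelihood test, with TMM scaling and its own low-count filter (filterByExpr), and the Benjamini-Hochberg adjustment ran over every gene tested, with a threshold of 0.05. Intervals of log2 fold changes are at 95%. The code was tested on simulated data. Stem-loops and promoters were read with pysam 0.24.0 within 150 bases after the stop codon and 250 bases before the start. The alternatives were DESeq2 1.42.0, DESeq2 scaling within edgeR, scaling by library size, testing without a filter or with a minimum of 10 counts per library, a joint model of the 12 libraries, a replicate block, and leaving out each library.

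The members, the lists, and the tests were chosen with earlier results of these data known. Named are members called in any test, the 6 most abundant and the 3 with the smallest p in each comparison per class, 16 preset members, at most 4 genes per list with the smallest p for Arg, cell type markers, and genes marked in the text as chosen after their values were seen. A single variant member is not reported here by name or value, and it stays within the counts, sums, and medians.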

Additional observations from a re-analysis of the deposited data

How the results depend on the processing

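Of the values of single genes recomputed under the alternatives, 1547 stayed on the same side of the threshold, 25 passed newly, and 28 no longer passed, and none changed sign with a call. The 1547 include genes that were not called in the main test and stayed so, and only a called gene could be among the 28. The main tests called 1 member for Arg at 24 h and 0 at 48 h. They called 5 with time in control cells, 7 with time under Arg, and 0 in the interaction. For Arg at 24 h, DESeq2 called 2 members (H1FX and H2AFY2), library size only 0, no filter 2, and all 12 libraries in a single model 2 (H1FX and HIST1H2BF under both), and leaving out a library gave between 0 and 2. For Arg at 48 h, no filter called 2 (H2AFZ and HIST3H2A), and leaving out a library gave between 0 and 7. Time in control cells gave between 1 and 5 called members with a library left out, and time with Arg between 4 and 8. The median log2 change of the variant genes with time in control cells was -0.061 in the main test and 0.040 in DESeq2. It was -0.0011 by library size only, 0.039 without a filter, and between -0.12 and -0.030 with a library left out. DESeq2 and the fit without a filter covered 75 members there, against 45 in the main test, so the medians are not over the same genes. For Arg at 48 h the variant median was between -0.077 and 0.0030 with a library left out. The replication-dependent median with time in control cells was -0.23 in the model of all 12 libraries and between -0.17 and -0.0080 with a library left out. With Arg it was -0.18 by library size only, -0.18 without a filter, and between -0.23 and -0.17 with a library left out. The variant median with time under Arg was -0.15 by library size only, against -0.21 in the main test. As a share of the raw library total, the log2 ratio of summed levels was 0.15 for the replication-dependent genes with time in control cells and -0.30 for the variant genes with time under Arg, which was -0.40 without the gene with the most counts. The cause of these shifts was not tested.

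The labels do not say whether the letters A, B, and C pair the libraries. The correlation of deviations was above 0.1 for 1 of 12 pairs (0.13, letter B with time in control cells). With the replicate block, edgeR called 1 member for Arg at 24 h (HIST1H2BF, in place of H2AFY2) and 0 at 48 h. It called 6 with time in control cells, 7 with time under Arg, and 0 in the interaction. Over all genes, calls for Arg at 48 h went from 0 higher and 17 lower to 43 and 141. With time in control cells they went from 1431 and 1451 to 1969 and 2075. They fell from 398 and 549 to 379 and 545 for Arg at 24 h, and from 2060 and 2012 to 1926 and 1853 with time under Arg. Low counts limited the tests of the replication-dependent class: 32 of its 71 members entered no test, and 35 had fewer than 100 counts over all libraries. The reason for the low counts was not tested.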
